A study of Mus musculus with 6 samples.

Results

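The integrated stress response was described here by 36 genes: the kinases and phosphatase subunits that act on the translation factor eIF2, the transcription factors of the pathway, and target genes of ATF4, among them the enzymes of serine synthesis. They are the rows of the deposited table, which lists 28812 genes, that carry these 36 gene names, and all 36 were found. Their mRNA levels come from poly(A)-selected RNA sequencing of 6 libraries from wild-type mouse chondrocytes, the cells of cartilage, labelled as osteoarthritic (OA). All 6 had received interleukin-1 beta (IL-1β), a cytokine of inflamed joints. Vehicle was added in 3 of them and mitochondria in the other 3, which the series title attributes to osteocytes, the resident cells of bone. The labels give no dose, time or animal age, and do not say whether the 3 libraries of a group came from separate animals or cultures, so p-values measure only the spread between these libraries. No library without IL-1β was analysed here.

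In the integrated stress response, a kinase that senses a particular stress phosphorylates the alpha subunit of eIF2. Most translation then slows, while the mRNAs of ATF4 and a few other factors, which carry upstream open reading frames, are translated more. ATF4 binds composite C/EBP-ATF elements and raises genes for amino acid uptake and synthesis, for one-carbon metabolism and for feedback on the response itself. In chondrocytes the pathway is known from growth plate disorders in which misfolded matrix proteins load the endoplasmic reticulum (ER). The control of ATF4 is largely translational, and mRNA levels do not measure it.

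Libraries held 63547854 to 66293786 deposited counts, and a sequenced fragment is worth about 4 of these. Levels are given as CPM, the count over a library size adjusted by TMM factors. Along the main axis of variation of log2 CPM (43.0% of variance), vehicle replicate 1 lay at -30.4, nearer to the mitochondria libraries (27.4 to 81.4) than vehicle replicates 2 and 3 (-56.7 and -56.4). Of 15 chondrocyte markers all were tested, with 2 higher and 3 lower in the mitochondria group, and their summed level was 2449 to 2846 CPM in vehicle and 2022 to 2215 CPM in mitochondria libraries. Markers of fibroblasts summed to 11089 to 12753 and 9794 to 11307 CPM, those of macrophages to 47.6 to 62.4 and 41.8 to 52.4 CPM, and those of erythroid cells to 125 to 162 and 76.0 to 89.2 CPM. The osteocyte markers Dmp1 and Sost were at 0 in 5 of the 6 libraries each, and the sum of that list (154 to 236 and 244 to 271 CPM) was almost all Pdpn. The part of these shifts in the results below was not tested. In bulk RNA, fewer cells of a type and less RNA per cell cannot be told apart.

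Of the members 5 rose with mitochondria, and a stretch before a RefSeq start site of each is given first, to be read for the ATF4 element. The stretches are the 250 bases before that start site (assembly GRCm38.p6, 1-based), 5′ to 3′ on the strand of the gene, in lower case. For Nupr1 and Slc3a2 that site lies inside the gene span given below, so the sequence before the span was not searched. The Ddit4 stretch overlaps the 5′ end of its span. Capitals mark matches to the ATF4 element TGATGNAA, searched on both strands.
Atf4, chr15:80254934-80255183, strand +: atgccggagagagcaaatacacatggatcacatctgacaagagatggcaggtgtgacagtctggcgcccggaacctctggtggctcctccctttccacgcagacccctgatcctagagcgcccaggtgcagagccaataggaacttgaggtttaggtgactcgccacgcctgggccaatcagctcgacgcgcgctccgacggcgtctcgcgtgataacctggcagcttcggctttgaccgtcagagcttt
Ddit4, chr10:59951771-59952020, strand -: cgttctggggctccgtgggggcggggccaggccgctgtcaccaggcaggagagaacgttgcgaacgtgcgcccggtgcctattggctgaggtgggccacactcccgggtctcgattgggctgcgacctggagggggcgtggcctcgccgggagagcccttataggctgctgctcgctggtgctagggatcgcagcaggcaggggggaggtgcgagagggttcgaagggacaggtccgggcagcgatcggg
Trib3, chr2:152344061-152344310, strand -: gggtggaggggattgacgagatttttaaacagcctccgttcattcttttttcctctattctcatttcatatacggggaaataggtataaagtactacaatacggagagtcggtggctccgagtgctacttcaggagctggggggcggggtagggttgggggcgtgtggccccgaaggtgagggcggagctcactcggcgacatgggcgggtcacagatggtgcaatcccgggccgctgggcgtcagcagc
Nupr1, chr7:126625471-126625720, strand -: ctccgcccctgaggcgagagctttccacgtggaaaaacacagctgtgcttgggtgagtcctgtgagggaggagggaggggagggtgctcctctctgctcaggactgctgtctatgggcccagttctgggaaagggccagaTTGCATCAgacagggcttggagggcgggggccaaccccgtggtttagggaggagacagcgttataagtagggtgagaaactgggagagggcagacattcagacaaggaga
Slc3a2, chr19:8713898-8714147, strand -: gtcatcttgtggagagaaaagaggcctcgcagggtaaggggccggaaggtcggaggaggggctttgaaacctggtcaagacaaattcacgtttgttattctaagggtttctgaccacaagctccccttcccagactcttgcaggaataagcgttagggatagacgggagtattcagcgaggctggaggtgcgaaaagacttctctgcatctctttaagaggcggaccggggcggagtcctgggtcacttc
Among these 5 stretches 1 match was found, in Nupr1. RefSeq promoters, taken as 250 bases before to 50 after a start site, were held for 32 of the 36 members. The element occurred in 9 of these 32 (28.1%), against 1219 of 27025 genes (4.51%), and its strict form TGATGCAA in 7 (21.9%) against 279 (1.03%). The 9 matches follow with 11 bases on each side, so that the element can be compared across members.
Nupr1, chr7:126625562-126625591, strand -: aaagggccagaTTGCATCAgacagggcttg
Trib3, chr2:152344028-152344057, strand -: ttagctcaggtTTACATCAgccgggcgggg
Atf3, chr1:191183425-191183454, strand -: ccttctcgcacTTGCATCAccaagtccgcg
Chac1, chr2:119351038-119351067, strand +: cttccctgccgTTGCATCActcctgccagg
Asns, chr6:7693214-7693243, strand -: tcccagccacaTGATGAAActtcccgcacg
Slc1a4, chr11:20332699-20332728, strand -: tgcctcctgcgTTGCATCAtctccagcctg
Pycr1, chr11:120643833-120643862, strand -: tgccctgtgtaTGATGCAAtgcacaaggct
Jdp2, chr12:85599372-85599401, strand +: atagccggggcTGATGCAAcccgtcccgcc
Vldlr, chr19:27216809-27216838, strand +: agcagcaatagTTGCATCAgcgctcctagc
Capitals read TTGCATCA or TTACATCA where the element lies on the opposite strand. It began 110 bases upstream of the RefSeq start site in both Nupr1 and Atf3, 23 bases upstream in Asns, 193 in Chac1, and 15 bases downstream in Trib3. In Atf3, as in Nupr1, that site lies inside the gene span. Of the 9 members with the element 2 rose and 7 did not pass the test, with a median log2 fold change of 0.20. Of the 23 without it 3 rose and 20 did not pass, with a median of 0.12. A full CRE, TGACGTCA, was found in the promoter of 1 member, Ppp1r15a, against 549 of 27025 genes (2.03%). A match describes the letters in this window and does not show that a factor binds there. Members were listed in part as known ATF4 targets, so a higher share of the element among them is built into the list.

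The 5 genes that rose were Atf4 itself, the feedback and stress genes Ddit4, Trib3 and Nupr1, and the transporter subunit Slc3a2, each by 1.40 to 1.61 times. The eIF2 kinases and phosphatase subunits, the enzymes of serine, asparagine and proline synthesis and most amino acid transporters did not pass the test, and neither did the ATF4 targets Ddit3, Chac1, Asns and Sesn2. Counts were tested with edgeR's quasi-likelihood fit over 17290 genes, two-sided, with Benjamini-Hochberg adjustment and a threshold of 0.05, and log2 fold changes are given as mitochondria over vehicle with their standard error (SE). All 36 members passed the filter on low counts. Of the 36, 5 were higher (13.9%, against 6.36% of all genes tested) and 0 were lower (against 8.46%, or 1463 genes). In either direction the share called among members was close to the 14.8% of all genes. At an unadjusted p under 0.05 there were 11 members higher and 3 lower (38.9%, against 31.5% of all genes), and DESeq2 and limma on FPKM also called 0 members lower. Over all genes 1099 were higher and 1463 lower, which became 810 and 1724 with scaling to total counts only.

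The median log2 fold change of the 36 members was 0.13, against 0.0031 over all genes, and 28 of them had estimates above 0 (77.8%, against 50.3%). The CPM values of the 2 groups did not overlap in 17 members (47.2%, against 40.7% of all genes), 14 with the mitochondria libraries above (19.8% of all genes) and 3 with them below (20.9%). Of the 31 members that did not pass, 22 had a 95% confidence interval that lay within 1.5-fold in either direction. Counts rested on single libraries, for the members as over all genes, where 1099 were higher with every library kept. Without vehicle replicate 1, 7 members were called higher (970 of all genes). With vehicle replicate 2 or vehicle replicate 3 left out, 2 members, Nupr1 and Ddit4, were called higher (130 and 132 of all genes). Once mitochondria replicate 3 was left out, 4 members were called higher (398 of all genes). Fold change went with GC content over all genes (Pearson r = 0.34 across the 99.9% of genes tested with a GC value, which share the 6 libraries and are not replicates). With an offset for GC content in each library 8 members were higher and 3 lower, against 10.1% and 9.42% of all genes. The 5 members called in the main fit still passed with these offsets. Their log2 estimates were then 0.40 for Atf4, 0.46 for Ddit4, 0.47 for Trib3, 0.66 for Nupr1 and 0.36 for Slc3a2, against 0.48 to 0.69 without offsets.

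**Figure D1:**
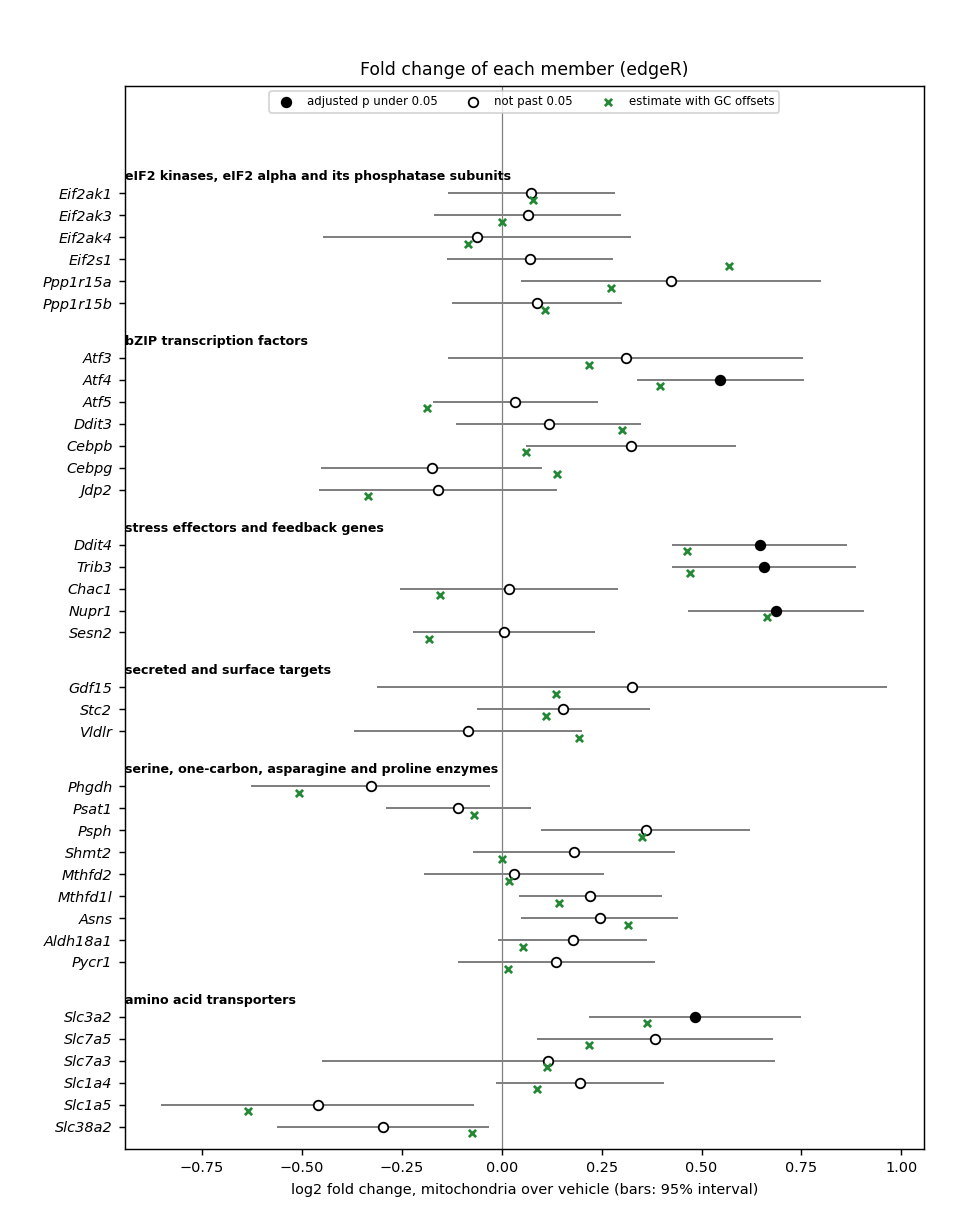
Log2 fold change, mitochondria over vehicle, of the 36 members by role. Circles are edgeR estimates (filled where the adjusted p was under 0.05), bars are 95% confidence intervals and crosses are estimates with GC offsets. The 5 filled circles lie between 0.48 and 0.69.

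None of the 6 genes for the eIF2 kinases, eIF2 alpha and its phosphatase subunits passed, with a median log2 fold change of 0.07. Eif2ak1 (HRI, the heme-regulated kinase that also takes part in mitochondrial stress) was measured at 59.2, 56.7 and 59.2 CPM in the vehicle libraries, in replicate order, and at 62.7, 57.2 and 64.6 CPM in the mitochondria libraries, which overlap (log2 0.07 ± 0.09 SE, 95% interval -0.14 to 0.28, edgeR adjusted p = 0.63). Eif2ak3 (PERK, the ER kinase) changed by 0.07 ± 0.10 with an interval of -0.17 to 0.30, and Eif2ak4 (GCN2, which senses uncharged tRNA) by -0.06 ± 0.17 with an interval of -0.45 to 0.32. Eif2s1, the eIF2 alpha subunit that these kinases phosphorylate, lay at 91.3 to 96.3 CPM in vehicle and 91.0 to 104 CPM in mitochondria libraries, and Ppp1r15b, the constitutive phosphatase subunit, at 100.1 to 109 and 103 to 120.2 CPM. The intervals of all but Ppp1r15a kept within 1.5-fold in either direction. With GC offsets the estimate of Eif2s1, whose longest transcript has a GC content of 40.8%, was 0.57 (edgeR adjusted p = 0.0081), so whether it passed depended on that correction.

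Ppp1r15a, which encodes GADD34, the stress-induced phosphatase subunit that reverses eIF2 phosphorylation, split the vehicle group. It was measured at 90.3, 59.0 and 58.8 CPM with vehicle and at 96.2, 92.3 and 90.4 CPM with mitochondria. Vehicle replicate 1 stood at the level of the mitochondria libraries, and replicates 2 and 3 well below it. The log2 fold change was 0.42 ± 0.17 (edgeR adjusted p = 0.12), and 0.66 without vehicle replicate 1 (adjusted p = 0.0084). With each library left out in turn it ranged from 0.32 to 0.66, and with GC offsets it was 0.27 (adjusted p = 0.25).

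Among the 7 transcription factors Atf4 rose and the other 6 did not pass, with a median log2 fold change of 0.12. Its level was 319.9, 285 and 287 CPM in the vehicle libraries and 473, 423 and 408 CPM in the mitochondria libraries. Every mitochondria library lay above every vehicle library, and the fold was 1.46 (log2 0.55 ± 0.09 SE, 95% interval 0.34 to 0.76, edgeR adjusted p = 0.0093). The gene (ENSMUSG00000042406) lies on chromosome 15 at 80255184 to 80257541 of GRCm38. The adjusted p was 0.062 without vehicle replicate 2 and 0.064 without vehicle replicate 3, with estimates of 0.51 and 0.52.

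The partners and targets of ATF4 among the factors did not pass. Ddit3 (CHOP, a pro-apoptotic factor downstream of ATF4) stood at 48.7, 40.9 and 44.4 CPM with vehicle and 49.1, 49.2 and 47.0 CPM with mitochondria, with vehicle replicate 1 among the mitochondria values (log2 0.12 ± 0.10, interval -0.11 to 0.35, edgeR adjusted p = 0.48). Atf5, a related factor whose mRNA is likewise translated under stress, lay at 191 to 199 and 188 to 222 CPM (log2 0.03 ± 0.09, interval -0.17 to 0.24). Atf3, a factor induced by many stresses, was at 42.3, 27.3 and 24.8 CPM with vehicle and at 42.6, 39.2 and 35.3 CPM with mitochondria. As with Ppp1r15a, vehicle replicate 1 was as high as the mitochondria libraries. The estimate was 0.31 ± 0.20 (edgeR adjusted p = 0.32) with it and 0.58 (adjusted p = 0.034) without it. With each library left out in turn the estimate ranged from 0.16 to 0.58, and with GC offsets it was 0.22 (adjusted p = 0.45).

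The C/EBP factors went different ways without passing. Cebpb, an inflammatory and stress-responsive factor, was at 128 to 146 CPM with vehicle and 155 to 200.3 CPM with mitochondria, without overlap (log2 0.32 ± 0.12, edgeR adjusted p = 0.095), and its estimate was 0.06 with GC offsets. On the opposite strand Tmem189 shares 20.7% of the exon bases of Cebpb, and no source used here says that counting kept the strands apart. Cebpg, which pairs with ATF4, was at 48.6 to 57.6 and 40.03 to 49.5 CPM (log2 -0.18 ± 0.12), and the AP-1 repressor Jdp2 at 38.5 to 42.7 and 31.8 to 42.8 CPM (log2 -0.16 ± 0.13, and -0.34 with GC offsets, adjusted p = 0.035). Both groups overlapped in each.

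**Figure D2:**
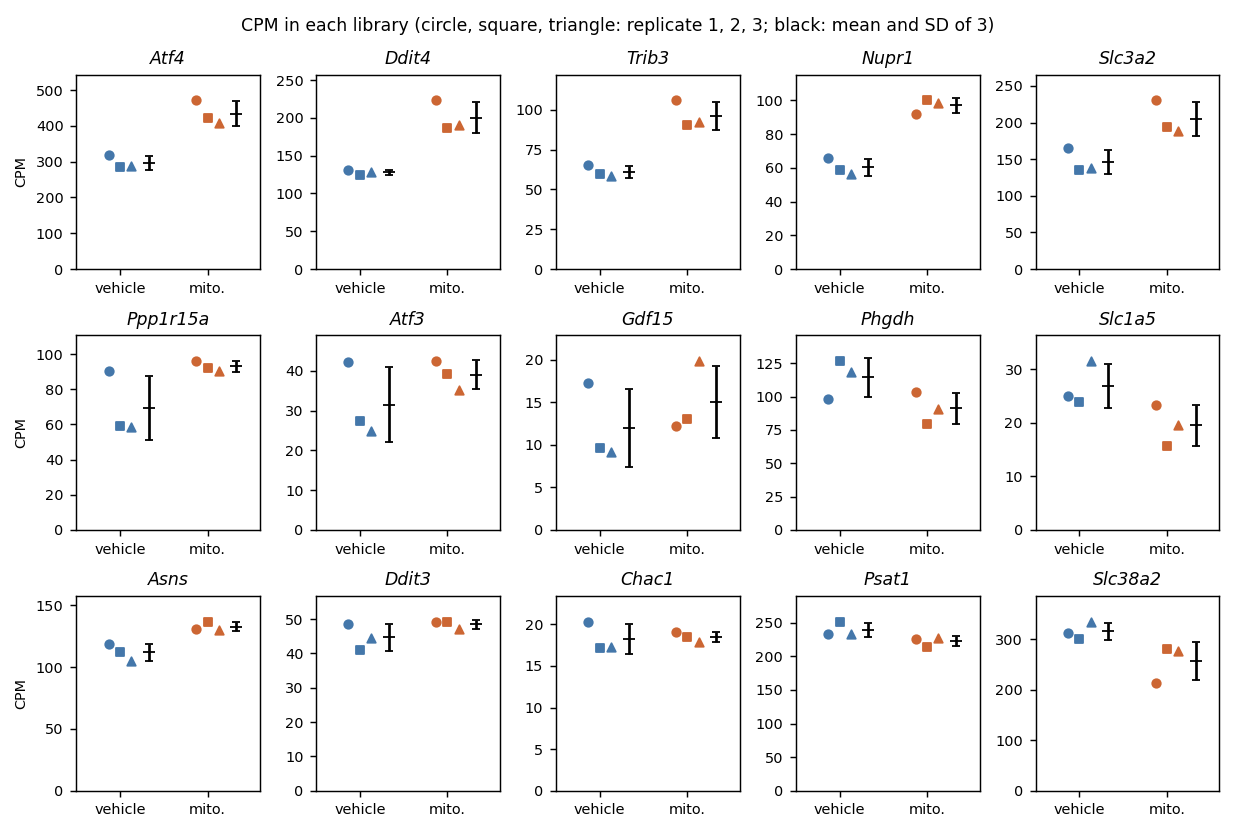
CPM of 15 members in each of the 6 libraries, on axes that start at 0. Symbols are single libraries (circle, square and triangle for replicates 1, 2 and 3) and black marks are the mean and SD of 3. In Atf4, Ddit4, Trib3, Nupr1 and Slc3a2 the groups are apart, while in Ppp1r15a, Atf3 and Gdf15 the circle of vehicle replicate 1 stands above the other vehicle libraries.

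Stress effectors and feedback genes held 3 of the 5 calls, with a median log2 fold change of 0.65. All 5 estimates were above 0, but those of Chac1 (0.02) and Sesn2 (0.01) were close to it. Nupr1, a small chromatin-associated stress protein, was measured at 65.8, 58.8 and 56.4 CPM with vehicle and at 92.1, 100.3 and 98.7 CPM with mitochondria. The groups were far apart, with a fold of 1.61 (log2 0.69 ± 0.10 SE, interval 0.46 to 0.91, edgeR adjusted p = 0.0058). Its estimate stayed between 0.60 and 0.75 and it was called under all 18 alternatives. Nupr1 (ENSMUSG00000030717) lies on chromosome 7 at 126623249 to 126630861, and the RefSeq promoter held for it, inside that span, is among those with the strict ATF4 element.

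Ddit4 encodes REDD1, an inhibitor of the growth kinase complex mTORC1. Its level was 132, 124 and 128 CPM with vehicle and 224, 187 and 190.4 CPM with mitochondria, so the vehicle libraries lay within a narrow band and all mitochondria libraries above it (fold 1.56, log2 0.65 ± 0.10, edgeR adjusted p = 0.0066). It too was called under all 18 alternatives, with estimates of 0.46 to 0.71. Trib3, a pseudokinase that binds ATF4 and dampens its activity, rose from 65.1, 59.4 and 58.6 CPM to 106, 90.5 and 92.0 CPM (fold 1.58, log2 0.66 ± 0.10, adjusted p = 0.0072). Its groups did not overlap either, but the adjusted p was 0.051 without vehicle replicate 2 and 0.054 without vehicle replicate 3. Ddit4 lies on chromosome 10 at 59949669 to 59951834 and Trib3 on chromosome 2 at 152337422 to 152344032.

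Chac1 and Sesn2, the other 2 genes of this group, did not pass. Chac1, which degrades glutathione, was at 20.3, 17.2 and 17.3 CPM with vehicle and 19.1, 18.4 and 17.9 CPM with mitochondria (log2 0.02 ± 0.12, interval -0.26 to 0.29, edgeR adjusted p = 0.94). Sesn2, a leucine sensor that restrains mTORC1, was at 105, 88.7 and 101 CPM and at 105, 92.9 and 97.6 CPM (log2 0.01 ± 0.10, interval -0.22 to 0.23). The upper bound for Chac1 was a fold of 1.22 and for Sesn2 1.18, below the lower bounds for Nupr1 (1.38), Ddit4 (1.34) and Trib3 (1.34). The difference between these genes was not tested.

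The 3 secreted and surface targets did not pass (median log2 fold change 0.15). Gdf15, a cytokine that marks mitochondrial and ER stress, was measured at 17.2, 9.59 and 9.12 CPM with vehicle and 12.2, 12.97 and 19.9 CPM with mitochondria. High and low libraries occurred in both groups, and the interval was wide (log2 0.33 ± 0.28, -0.31 to 0.96, edgeR adjusted p = 0.48). Without vehicle replicate 1 the estimate was 0.68 (edgeR adjusted p = 0.11). With each library left out in turn it ranged from 0.07 to 0.68, and with GC offsets it was 0.14 (adjusted p = 0.79). The glycoprotein Stc2 was at 115 to 130.5 and 128 to 148 CPM (log2 0.15 ± 0.10), and the lipoprotein receptor Vldlr at 406 to 485 and 346 to 469.8 CPM (log2 -0.09 ± 0.13), with overlapping groups in both.

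**Figure D3:**
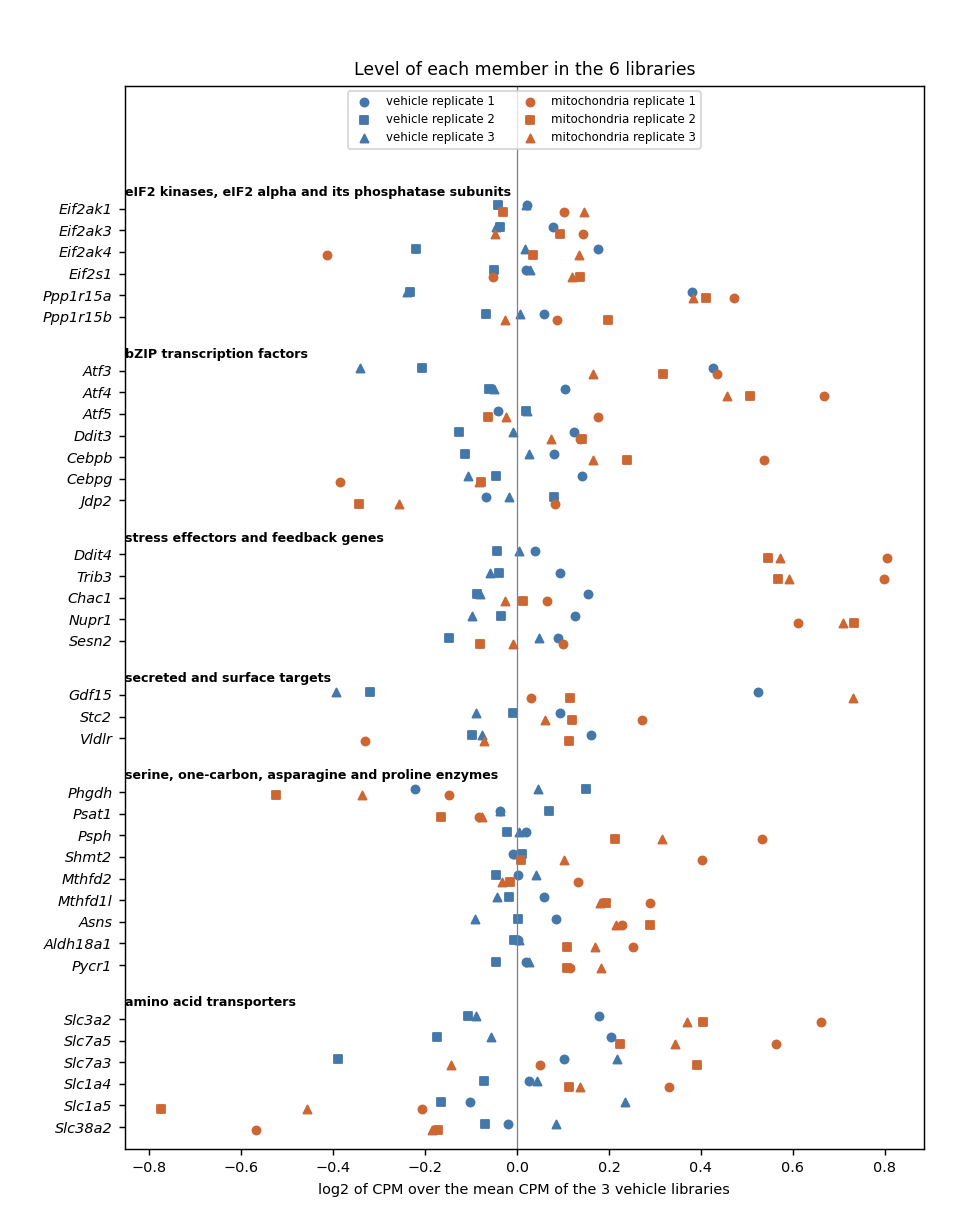
Level of each member in each library, as log2 of its CPM over the mean of the 3 vehicle libraries, so that 0 is the vehicle mean. Symbols are single libraries. Vehicle replicate 1 (blue circle) is the highest vehicle library in 23 of the 36 members.

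None of the 9 enzymes of serine, one-carbon, asparagine and proline metabolism passed (7 estimates above 0 and 2 below, median log2 fold change 0.18), and the 3 steps of serine synthesis did not share a direction. Phgdh, the first step, was at 98.1, 127 and 118 CPM with vehicle and 103, 79.6 and 90.5 CPM with mitochondria, with overlap in the replicates numbered 1 (log2 -0.33 ± 0.13, interval -0.63 to -0.03, edgeR adjusted p = 0.13). Psat1, the second step, was at 234, 251 and 234 CPM and at 226, 213 and 227 CPM, slightly lower in every mitochondria library (log2 -0.11 ± 0.08, adjusted p = 0.40). Psph, the last step, was at 27.1, 26.3 and 26.8 CPM and at 38.7, 31.0 and 33.3 CPM, higher in every mitochondria library (log2 0.36 ± 0.11, adjusted p = 0.068).

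For Phgdh the adjusted p was 0.011 with GC offsets (log2 -0.51) and 0.044 without mitochondria replicate 1 (log2 -0.43). Psph passed with GC offsets (adjusted p = 0.048), in DESeq2 (0.033) and with upper quartile scaling (0.049). The chaperonin gene Cct6a, on the opposite strand, shares 10.4% of the exon bases of Psph and had a mean of 13990.0 counts against 1974, so the value of Psph is uncertain where strands were not kept apart. On the length-normalised scale Psat1 and Phgdh had mean FPKM of 52.4 and 42.9 in vehicle libraries, against 5.74 for Psph.

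The mitochondrial folate enzymes and the asparagine and proline enzymes had small positive estimates. Shmt2, which splits serine to glycine, was at 146, 148 and 147 CPM with vehicle and 195, 148 and 158 CPM with mitochondria, raised mainly in mitochondria replicate 1 (log2 0.18 ± 0.11, edgeR adjusted p = 0.31). Mthfd2, the next enzyme of that route, was at 36.3 to 38.5 and 36.6 to 41.1 CPM (interval -0.20 to 0.26), and Mthfd1l, which releases formate, was at 306 to 328 and 357 to 385 CPM (log2 0.22 ± 0.08, adjusted p = 0.092). Asns, asparagine synthetase and a standard reporter of ATF4, was at 119, 112 and 105 CPM with vehicle and 131, 137 and 129.9 CPM with mitochondria. Its groups did not overlap, and the fold was 1.19 with an interval of 1.03 to 1.36 (adjusted p = 0.091, and 0.020 with GC offsets). The proline enzymes Aldh18a1 (131 to 132 and 141 to 156 CPM) and Pycr1 (16.6 to 17.5 and 18.5 to 19.5 CPM) were likewise apart. The folds were 1.13 and 1.10, with edgeR adjusted p of 0.18 and 0.44. Groups did not overlap in 40.7% of all genes. With GC offsets the log2 estimates were 0.05 for Aldh18a1, 0.01 for Pycr1, 0.14 for Mthfd1l, 0.02 for Mthfd2 and -0.00041 for Shmt2, and none of these passed.

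Of the 6 amino acid transporters Slc3a2 rose and 5 did not pass (4 estimates above 0 and 2 below, median log2 fold change 0.16). It encodes the heavy chain CD98, which carries several light-chain transporters to the cell surface, and lies on chromosome 19 at 8706882 to 8723369. Its level was 165, 136 and 137 CPM with vehicle and 231, 193 and 189 CPM with mitochondria, without overlap (fold 1.40, log2 0.48 ± 0.12, edgeR adjusted p = 0.028). The call was lost without vehicle replicate 2 (adjusted p = 0.13), vehicle replicate 3 (0.13) or mitochondria replicate 3 (0.058), and with no filter on low counts (0.071). Its light chain Slc7a5 (LAT1, for leucine and other large amino acids) was at 92.6, 71.3 and 77.3 CPM and at 119, 93.9 and 102 CPM. The groups were just apart between vehicle replicate 1 and mitochondria replicate 2 (log2 0.38 ± 0.13, edgeR adjusted p = 0.081). Slc7a5 passed under 2 of the 18 alternatives, DESeq2 (adjusted p = 0.036) and the replicate block (0.041). With GC offsets its estimate was 0.22 (adjusted p = 0.16).

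The other transporters pointed both ways. Slc1a5, a glutamine carrier, was at 24.99, 23.9 and 31.6 CPM with vehicle and 23.3, 15.7 and 19.6 CPM with mitochondria, and Slc38a2, a transporter induced by amino acid shortage, at 312, 301 and 335 and at 213, 280.4 and 278 CPM. In both every mitochondria library was lower, with estimates of -0.46 ± 0.17 and -0.30 ± 0.12 and adjusted p of 0.11 and 0.12 (edgeR). With GC offsets Slc1a5 changed by -0.64 (adjusted p = 0.014) and Slc38a2 by -0.07 (adjusted p = 0.50). The neutral amino acid carrier Slc1a4 was at 151 to 164 and 172 to 199.9 CPM (log2 0.20 ± 0.09), and the cationic carrier Slc7a3 was rare, at 2.54 to 3.87 and 3.02 to 4.37 CPM, with an interval of -0.45 to 0.68.

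Per length, Atf4 was the most abundant member, at a mean of 117 FPKM in vehicle and 164 FPKM in mitochondria libraries. It was followed by Cebpb (85.5 and 102 FPKM), Atf5 (91.8 and 89.5 FPKM) and Ddit4 (67.9 and 101 FPKM). The median member had a mean of 24.8 FPKM over the 6 libraries. Slc7a3 was the lowest at 0.824 FPKM, after the kinase Eif2ak4 (2.85 and 2.60 FPKM). The kinases Eif2ak3 (5.56 and 5.55 FPKM) and Eif2ak1 (9.58 and 9.62 FPKM) also stood low in the order. Of the 35 pairs of neighbours in this order, 32 had overlapping library values.

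**Figure D4:**
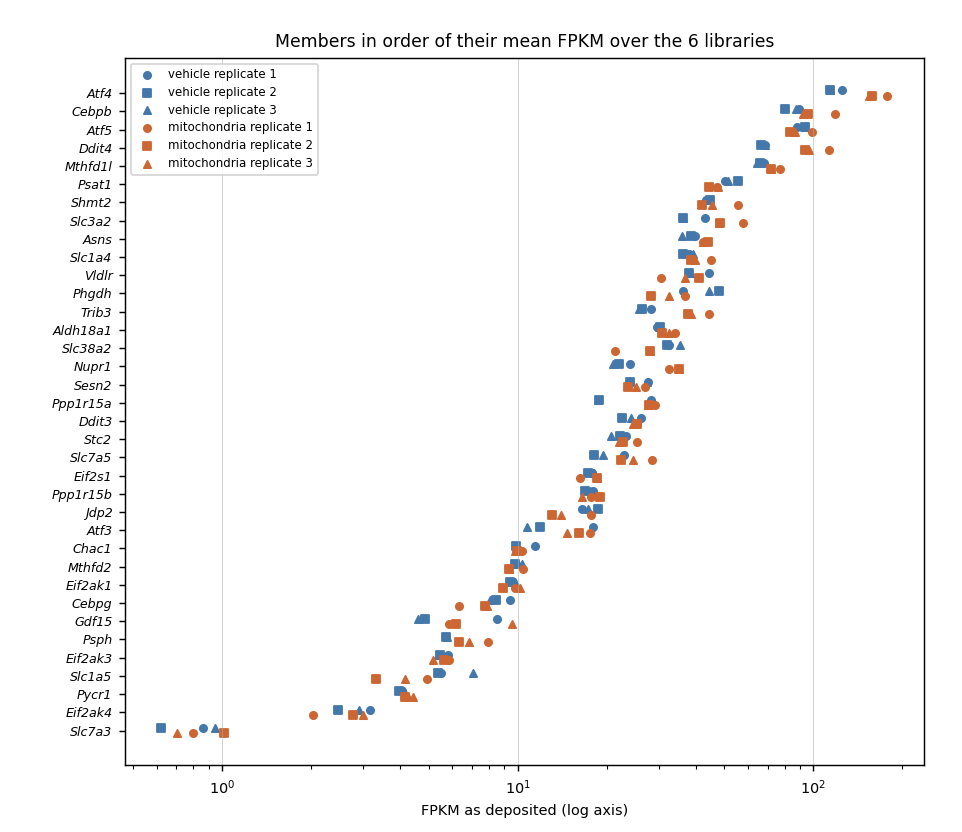
Deposited FPKM of the 36 members in each library on a log axis, in order of the mean over 6 libraries. Blue symbols are vehicle and orange symbols mitochondria libraries. The order runs from Slc7a3 at a mean of 0.824 to Atf4, whose mitochondria libraries lie above its vehicle libraries.

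Across members the libraries did not differ evenly. Vehicle replicate 1 was the highest of the vehicle libraries in 23 of the 36 members (63.9%, against 36.4% of all genes tested), among them 5 of 5 stress effectors and 3 of 3 secreted and surface targets. Its level over the mean of vehicle replicates 2 and 3 was 1.84 for Gdf15, 1.62 for Atf3 and 1.53 for Ppp1r15a, and 0.800 for Phgdh. Summed FPKM of the 5 stress effectors was 154 ± 5.75 in vehicle and 211 ± 14.1 in mitochondria libraries (SD, n = 3), of the 7 transcription factors 359 ± 11.7 and 418 ± 37.2, and of the 9 enzymes 293 ± 8.24 and 296 ± 17.5.

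Other genes of the pathway were taken from lists chosen by function. Of 115 such genes 114 were tested, and 15 were higher (13.2%, against 6.36% of all genes tested) and 5 lower (4.39%, against 8.46%). Their median log2 fold change was 0.09. In either direction 14.8% of all genes were called, and the counts of single lists below stand against these same shares. In the list of other ATF4 and CHOP targets none of 11 passed as lower, with 4 estimates below 0 (median 0.28), and 4 rose. They were the translation repressor Eif4ebp1 (0.54 ± 0.11, edgeR adjusted p = 0.019), the ER oxidase Ero1l (0.83 ± 0.19, 0.022), the angiogenic factor Vegfa (0.61 ± 0.13, 0.019) and the thioredoxin inhibitor Txnip (0.31 ± 0.07, 0.026). Ero1l was abundant, and its mean CPM was 1217 ± 346 in vehicle and 2165 ± 301 in mitochondria libraries (SD, n = 3). Fgf21, a hormone induced by ATF4 and the 1 gene not tested (named after its values were seen), was below the filter, at 0 to 0.251 FPKM.

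Aminoacyl-tRNA synthetases, a group that ATF4 is known to raise, had 16 of 20 estimates above 0 (against 50.3% of all genes), with a median of 0.15. Of the 20, 1 passed, the cysteinyl enzyme Cars (96.5 ± 14.9 to 147 ± 9.39 CPM, SD, n = 3). Its log2 fold change was 0.60 ± 0.12 SE (edgeR adjusted p = 0.017). Among eIF2, eIF2B and their regulators the adaptor Nck2 (0.62 ± 0.11, adjusted p = 0.013) and the exchange factor subunit Eif2b2 (0.47 ± 0.12, 0.037) rose. None of the 16 passed as lower, but 7 estimates were below 0 (lowest -0.57) and 9 above (median 0.07).

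Other one-carbon and amino acid enzymes moved in both directions, with 2 of 24 higher and 4 lower (median 0.06). The arginine pathway enzyme Ass1 rose from 94.6 ± 9.68 to 194 ± 14.5 CPM (log2 1.03 ± 0.11, edgeR adjusted p = 0.0031), the only one of the 20 companion genes called that was called under all 18 alternatives. The mitochondrial 10-formyltetrahydrofolate dehydrogenase Aldh1l2 rose (0.75 ± 0.19, adjusted p = 0.036) and its cytosolic counterpart Aldh1l1 fell (-1.10 ± 0.24, 0.021). The cytosolic folate enzyme Mthfd1 fell (-0.57 ± 0.10, 0.012), and so did Mthfd2l (-1.09 ± 0.18, 0.0096) and the cysteine-forming enzyme Cth (-0.76 ± 0.20, 0.040). Mthfd2l and Aldh1l1 were low, at 12.7 and 6.79 CPM with vehicle. With GC offsets the estimate of Mthfd2l was -0.53 and did not pass (edgeR adjusted p = 0.094).

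Of 16 other amino acid transporters (median -0.10) the glycine carrier Slc6a9 rose (0.55 ± 0.12, edgeR adjusted p = 0.020) and the glutamate carrier Slc1a3 fell (-0.96 ± 0.26, 0.040). The 13 genes of the mitochondrial stress relay (median 0.09) were mixed, with 7 estimates above 0 and 6 below (lowest -0.50), and none passed as lower. Of them 2 passed as higher, Dnaja3, a mitochondrial co-chaperone (0.38 ± 0.10, 0.030), and the protease Lonp1 (0.36 ± 0.10, 0.046). Lonp1 did not pass under 10 of the 18 alternatives. In the IRE1 and ATF6 arms of the ER stress response the ER proteins Sdf2l1 (0.69 ± 0.11, 0.0079), Manf (0.39 ± 0.10, 0.030) and Edem1 (0.37 ± 0.09, 0.031) rose. None of the 14 genes of that list passed as lower, with 5 estimates below 0 (median 0.17). Leaving out vehicle replicate 2 ended 18 of the 20 companion calls, vehicle replicate 3 ended 19 and mitochondria replicate 3 ended 13. Without vehicle replicate 1 or mitochondria replicate 2, 6 or 7 ended. With GC offsets 2 ended, Mthfd2l and Lonp1.

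**Figure D5:**
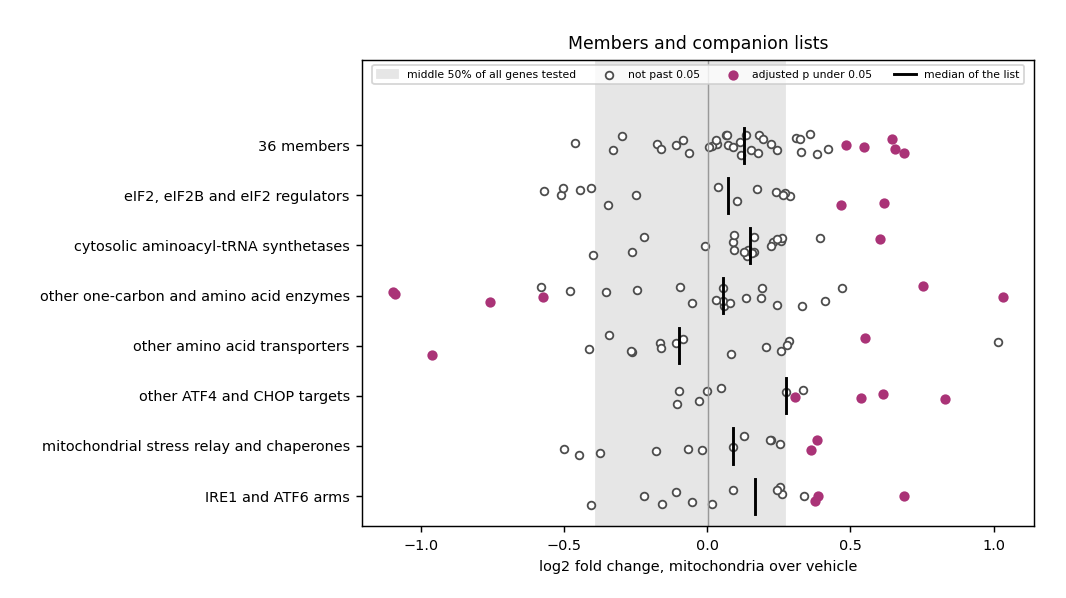
Log2 fold change, mitochondria over vehicle, of the 36 members and of the companion genes by list. Points are genes (filled where the edgeR adjusted p was under 0.05), black bars are list medians and the grey band is the middle 50% of all genes tested. The median of the members was 0.13 and that of the companions 0.09.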

How the data were processed

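RNA of 6 chondrocyte libraries was poly(A)-selected and sequenced paired-end. The authors deposited 1 table with FPKM (per kilobase and depth, normalised by them) and estimated counts (expected counts, whole numbers, not normalised) per gene and library. Tools named in the submitters' processing notes are StringTie 1.3.0, HISAT2 2.0 and Bowtie 0.12.2, and the build named is mm8. Which step used which is not given in the sources used here. The coordinates of the table follow GRCm38: of 28732 gene identifiers found in GENCODE M21, 90.2% had the same start and end. Counts pile up at 4, so a fragment was taken as 4 counts.

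Counts were fitted in R 4.3.3 with edgeR 4.0.16 (TMM, filterByExpr with minimum count 10, quasi-likelihood, group as the only term). The SE was derived from the F statistic and is no measure apart from the p. DESeq2 1.42.0 and limma 3.58.1 (log2 of FPKM plus 1 or 0.1) were alternatives, 18 in all, with each library left out in turn, a replicate block and GC offsets (loess of each library's deviation on GC content of the longest transcript, known for 99.9% of genes tested). The code was tested on simulated data. The members and lists were chosen with earlier results of these data known. All members are named, and companion genes where they passed (in a list with over 6, those of smallest adjusted p). Precision depends on the spread between libraries as well as on total depth. With counts divided by 4, 5 members and 1264 of all genes were called higher. No interval here covers more than the spread of 3 libraries.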

Additional observations from a re-analysis of the deposited data

How the results depend on the processing

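With all libraries kept, 4 to 6 members were higher under the alternatives run, apart from 7 in DESeq2 and 8 with GC offsets, where 3 were lower. With 1 library left out, 2 to 7 members were higher and 0 to 2 lower, 1 to 17 companion genes were higher and 0 to 11 lower, and over all genes 130 to 1086 were higher and 310 to 1694 lower. With no filter on low counts 357 genes were higher and 507 lower, with 3 and 2 companion genes. With GC offsets 1754 genes and 23 companion genes were higher, and in DESeq2 1687 genes were higher and 10 companion genes lower. Companion genes lower numbered 8 with total count scaling, 8 with counts divided by 4 and 9 in limma on log2(FPKM + 1), with or without a minimum mean FPKM of 1. The median log2 fold change of the members was 0.052 to 0.19 over the alternatives, above that of all genes (-0.062 to 0.063) in each of the 18. The causes were not tested.

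Signs changed under some alternatives for 11 members, none of which passed in the main fit or in a fit where its sign changed. Eif2s1 is among them and passed with GC offsets, where its sign was kept (0.57, edgeR adjusted p = 0.0081). In limma on log2(FPKM + 1), log2(FPKM + 0.1) and with mean FPKM of at least 1, the values were -0.0041, -0.0050 and -0.0041 for Eif2ak3, -0.00051, -0.00065 and -0.00051 for Eif2s1, -0.0386, -0.0390 and -0.0386 for Atf5, -0.0437, -0.0473 and -0.0437 for Chac1, -0.0595, -0.0616 and -0.0595 for Sesn2, and -0.0366, -0.0400 and -0.0366 for Mthfd2. With total count scaling they were -0.0318 for Atf5, -0.0462 for Chac1, -0.0587 for Sesn2 and -0.0346 for Mthfd2. With GC offsets they were -0.19 for Atf5, 0.14 for Cebpg, -0.15 for Chac1, -0.18 for Sesn2, 0.19 for Vldlr and -0.00041 for Shmt2. With 1 library left out the estimates ranged from -0.17 to 0.0868 for Eif2ak4, -0.0428 to 0.0796 for Atf5, -0.0261 to 0.0992 for Chac1, -0.0650 to 0.0503 for Sesn2, -0.20 to 0.0237 for Vldlr, -0.0232 to 0.0610 for Mthfd2 and -0.0483 to 0.24 for Slc7a3.

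The replicate number is not stated to pair the libraries, and same-number libraries correlated at 0.037, 0.0091 and -0.015 once group means were removed. With the number as a replicate block 898 genes were higher and 1386 lower, 6 members were higher and 0 lower, and 12 companion genes were higher and 6 lower.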

Other observations

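Slc7a11, the light chain that pairs with Slc3a2 to import cystine and a target shared by ATF4 and NRF2, did not pass and was singled out after its values were seen. It was measured at 64.1, 24.6 and 27.6 CPM with vehicle and at 53.2, 95.5 and 86.4 CPM with mitochondria. The groups overlapped through vehicle replicate 1 and mitochondria replicate 1, and the log2 fold change was 1.02 ± 0.36 (SE, edgeR adjusted p = 0.095), or 1.46 with GC offsets (adjusted p = 0.014).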
